A study of Mus musculus with 51 samples.

Results

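The difference between BALB/c and C57BL/6 mice in the response of the mammary gland (MG) to high-dose (HD) X-rays at 1 month was measured on 15 arrays of 51 in all, of which 43 were of MG and 8 of blood. They are the arrays whose labels give these groups: 4 BALB/c HD, 3 BALB/c sham, 4 C57BL/6 HD and 4 C57BL/6 sham. HD mice had received whole-body exposures of 1.8 Gy once a week for 4 weeks, sham mice none, and all were virgin females aged 8 weeks at the first exposure. The remaining MG arrays were of mice given a low dose (LD) or taken at 4 hr, and they served here to estimate the spread. Each array held the RNA of the 4th MG pair of 1 mouse without its inguinal lymph node, so no epithelium had been purified. In such bulk tissue, fewer cells of a type and less RNA per cell cannot be told apart. BALB/c mice carry variants of Prkdc, the gene of the DNA-PKcs subunit that joins broken DNA ends, and the estrous cycle had not been synchronised.

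The virgin gland is a branched epithelial tree within a pad of fat. Its inner luminal cells carry keratins such as Krt8, Krt18 and Krt19 and include cells that sense estrogen and progesterone, and an outer myoepithelial layer surrounds them. Ionizing radiation can act on such a tissue through loss of dividing cells, through p53 and through lasting changes in stroma, immune cells and hormone response. Fat and epithelium also run a circadian clock, in which the Per and Cry proteins hold back their own activators and the PAR-type factors Hlf, Tef and Dbp carry the rhythm to other genes. The labelled tissue was checked first: Adipoq, a fat cell hormone, lay between 13.35 and 13.79 on the log2 scale, Krt8 between 9.74 and 12.63 and Epcam, an epithelial adhesion protein, between 9.76 and 11.86 over the 15 arrays.

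Several arrays stood apart. BALB/c HD replicate 1 was high in lymphocyte transcripts, with the B cell receptor gene Ms4a1 at 9.84 there and 7.84 in C57BL/6 HD replicate 3, against 4.12 to 5.27 on the other 13 arrays. C57BL/6 sham replicate 2 was high in skeletal muscle transcripts, with the creatine kinase gene Ckm at 10.62, and BALB/c HD replicate 3 followed at 8.37. Results are therefore also given without the first of each kind (BALB/c HD replicate 1 and C57BL/6 sham replicate 2, called below the lymphoid and the muscle array) and, where that moved them, without all 4. Each strain lay on a plate of its own, so plate and strain cannot be told apart. The HD arrays of both strains lay in the same 4 wells in the right part of the plates and the shams in the left columns, so position and dose ran together.

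The quantity reported is the response of BALB/c (HD minus sham) minus the response of C57BL/6 (HD minus sham), in log2 units of the deposited values, called here the strain difference. A positive value means a higher HD response in BALB/c. It was fitted with limma on 22626 probe sets, which named 11807 genes, and its median standard error (SE) was 0.17, against 0.13 for the BALB/c response and 0.12 for the C57BL/6 response. No gene passed an adjusted p of 0.05 (0%), and the smallest adjusted p was 0.076. By any probe set, 876 genes (7.42%) had an unadjusted p under 0.05 in limma, a share that genes with several probe sets raise. By the probe set of highest mean of each gene, 2.61% had a positive and 2.69% a negative strain difference at this p. At the thresholds the study used for HD (an absolute log2 value above 0.58 with p under 0.01, taken here as unadjusted and called below the HD thresholds), 89 genes passed (0.754%). Of these, 36 had a higher response in BALB/c (0.305%) and 53 a lower one (0.449%). Since none passed after adjustment, single genes named below are descriptions of these mice rather than calls. Without the lymphoid and the muscle array 93 genes passed, 53 higher and 40 lower, so the balance of directions turned. All 89 genes kept their sign there, and 20 of the 36 and 29 of the 53 remained past the HD thresholds. With each of the 15 arrays left out in turn, 7 of the 36 and 17 of the 53 remained so throughout.

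The responses of the single strains give the frame. BALB/c HD mice differed from BALB/c sham mice in 15 genes at an adjusted p of 0.05 (0.127%), 7 higher (0.0593%) and 8 lower (0.0678%), and C57BL/6 HD mice from C57BL/6 sham mice in 299 (2.53%), 159 higher (1.35%) and 140 lower (1.19%). Without the lymphoid and the muscle array the BALB/c count was 6 and the C57BL/6 count 151, with 1 array left out they ran from 2 to 54 and from 38 to 528, and with plate column as a covariate both were 0. A count past a threshold in one strain and not in the other is no test of the difference, and among the 159 genes that rose in C57BL/6, 142 had a positive value in BALB/c too, with medians of 0.18 in BALB/c and 0.56 in C57BL/6. Among the 140 that fell in C57BL/6, 133 were also lower in BALB/c, with medians of -0.28 in BALB/c and -0.66 in C57BL/6. These medians are of genes chosen by their C57BL/6 values, which favours larger values in that strain. Crtac1, a cartilage matrix protein, rose in both strains: it lay at 5.94, 6.09, 5.87 and 6.68 in BALB/c HD mice and 4.34, 4.60 and 4.31 in BALB/c sham mice, and at 6.60, 5.55, 5.40 and 5.19 in C57BL/6 HD mice and 4.21, 4.32, 3.99 and 4.62 in C57BL/6 sham mice. Rhou, Plet1, Acot1 and Fxyd3 fell in both. Over all genes 7444 of 11807 (63%) had the same sign in both strains, whereas 31 of the 36 genes higher in BALB/c and 40 of the 53 lower in BALB/c had opposite signs, which the choice by a large difference favours.

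**Figure D1:**
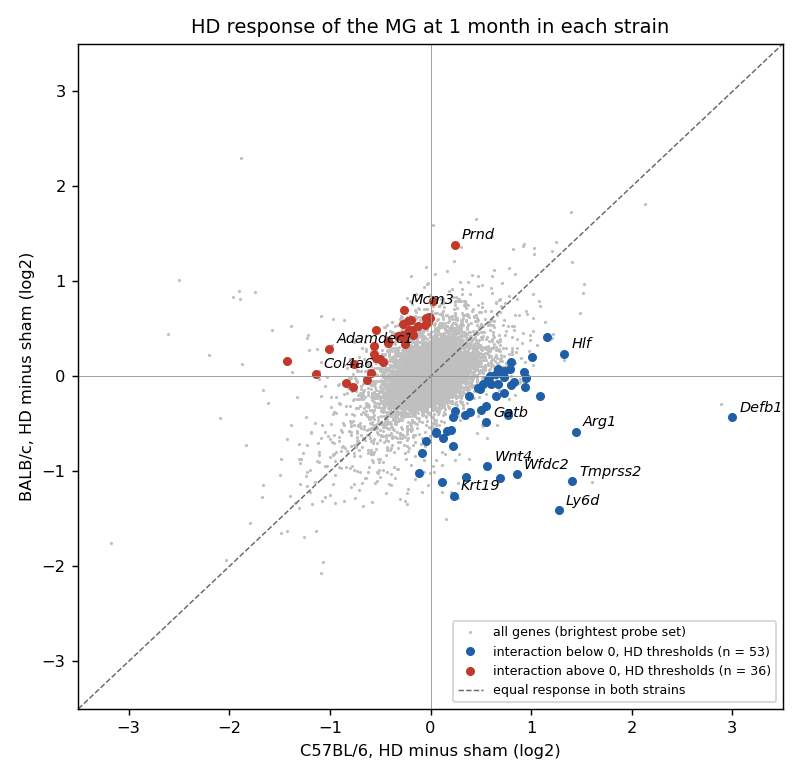
Response to HD in BALB/c (vertical axis, HD minus sham, log2) against that in C57BL/6 (horizontal axis, HD minus sham, log2) at 1 month, 1 point per gene. Colour marks the 89 genes past the HD thresholds for the strain difference, of which 53 lie below the line of equal responses and 36 above it; the largest distances among them are those of Defb1, Ly6d and Tmprss2.

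Among the 53 genes with the lower BALB/c response, Gatb, which encodes a subunit of the mitochondrial enzyme that forms glutaminyl-tRNA, had the smallest p. It lay at 6.82, 6.92, 6.79 and 6.92 in BALB/c HD mice, against 7.30, 7.34 and 7.41 in BALB/c sham mice. In C57BL/6 mice it lay at 7.84, 7.22, 7.14 and 7.35 after HD, against 6.65, 6.88, 6.82 and 6.99 after sham. The groups did not overlap in either strain, and they ran in opposite directions. The strain difference was -1.03 ± 0.19 (SE; 95% interval -1.42 to -0.65; adjusted p = 0.076). It was -1.03 without the lymphoid and the muscle array and between -1.12 and -0.89 with any 1 of the 15 arrays left out. Only 5 genes (0.0423%) were below sham in every BALB/c HD mouse and above sham in every C57BL/6 HD mouse: Gatb, Defb1, Tmem234, Baz1b and Ifnab. The reverse held for Arl2bp and Ascc2 (0.0169%).

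Defb1, an antimicrobial defensin of epithelia, had the largest strain difference of the 89. In BALB/c mice it lay at 3.86, 4.00, 3.83 and 4.23 after HD, against 4.30, 4.25 and 4.68 after sham. In C57BL/6 mice it lay at 9.95, 8.75, 9.11 and 9.38 after HD, against 7.45, 5.84, 7.20 and 4.70 after sham. The groups were apart in both strains. All BALB/c values were below the array medians, which ran between 6.16 and 6.36, so a further fall there could hardly be measured. The BALB/c response was -0.43 and the C57BL/6 response 3.00 (adjusted p = 0.0051), with a strain difference of -3.43 ± 0.82.

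Ly6d, a surface protein of luminal mammary cells, lay at 7.57, 7.70, 8.06 and 6.86 in BALB/c HD mice, against 8.93, 9.64 and 8.31 in BALB/c sham mice. It lay at 9.73, 9.95, 9.74 and 9.18 in C57BL/6 HD mice, against 6.85, 9.36, 8.19 and 9.11 in C57BL/6 sham mice. Every BALB/c HD mouse was below every BALB/c sham mouse, whereas the C57BL/6 groups overlapped through the values at 9.18 and 9.36. The strain difference was -2.68 ± 0.63 (adjusted p = 0.398), and it was -3.02 without the 2 arrays. Tmprss2, a serine protease of epithelial membranes, lay at 8.58, 8.19, 8.73 and 9.00 in BALB/c HD mice and 10.55, 8.82 and 9.82 in BALB/c sham mice, and at 9.58, 9.47, 9.24 and 8.68 in C57BL/6 HD mice and 6.74, 8.15, 7.79 and 8.66 in C57BL/6 sham mice. In C57BL/6 all HD mice were above all sham mice, the nearest at 8.68 and 8.66, and in BALB/c 1 HD mouse lay above the lowest sham mouse. Its strain difference was -2.51 ± 0.64.

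Wnt4, a ligand made by hormone-sensing luminal cells, lay at 5.86, 5.58, 6.28 and 6.36 in BALB/c HD mice and 7.40, 7.32 and 6.18 in BALB/c sham mice, and at 7.78, 7.46, 7.57 and 7.95 in C57BL/6 HD mice and 7.32, 7.39, 6.98 and 6.82 in C57BL/6 sham mice. The C57BL/6 groups were apart and the BALB/c groups overlapped through 1 sham mouse, and the strain difference was -1.51 ± 0.39. Sdc4, a heparan sulfate proteoglycan of the cell surface, was apart from the others in 1 group: it lay at 7.48, 7.24, 7.60 and 7.27 in BALB/c HD mice, against 8.06, 8.08 and 8.47 in BALB/c sham mice, and between 7.76 and 8.12 in both C57BL/6 groups. It was among the 8 genes that fell in BALB/c (-0.81, adjusted p = 0.00376) and differed by -0.09 in C57BL/6, with a strain difference of -0.72 ± 0.18, and of -0.44 by its other probe set. Slc12a2, the Na-K-Cl cotransporter of secretory epithelia, had a strain difference of -1.75 ± 0.50, with BALB/c HD mice at 9.33, 9.13, 9.77 and 9.46 below BALB/c sham mice at 10.31, 10.95 and 10.20.

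Mfap1a, a spliceosome protein, also fell in BALB/c (-0.57, adjusted p = 0.0284) but on a very different scale of level. It lay between 4.00 and 4.37 in BALB/c HD mice and between 4.68 and 4.81 in BALB/c sham mice, below the array medians, and between 7.69 and 8.15 in all C57BL/6 mice. Its strain difference of -0.73 ± 0.15 had an adjusted p of 0.237 and was that of 1 of 3 probe sets, another of which gave -0.03. Levels more than 2 log2 units apart between the strains' shams were found for 32 of 11807 genes (0.271%) by the probe set of highest mean. Of the 89, taken at their probe set of smallest p, 5 had such levels, so the counts are not like for like. The 5 include H2-Q10, a class Ib histocompatibility gene. It lay at 3.92 to 4.62 in BALB/c HD mice and 4.06 to 4.61 in BALB/c sham mice, and at 9.55 to 9.88 in C57BL/6 HD mice and 8.19 to 9.44 in C57BL/6 sham mice. Its BALB/c values lay below the array medians too.

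**Figure D2:**
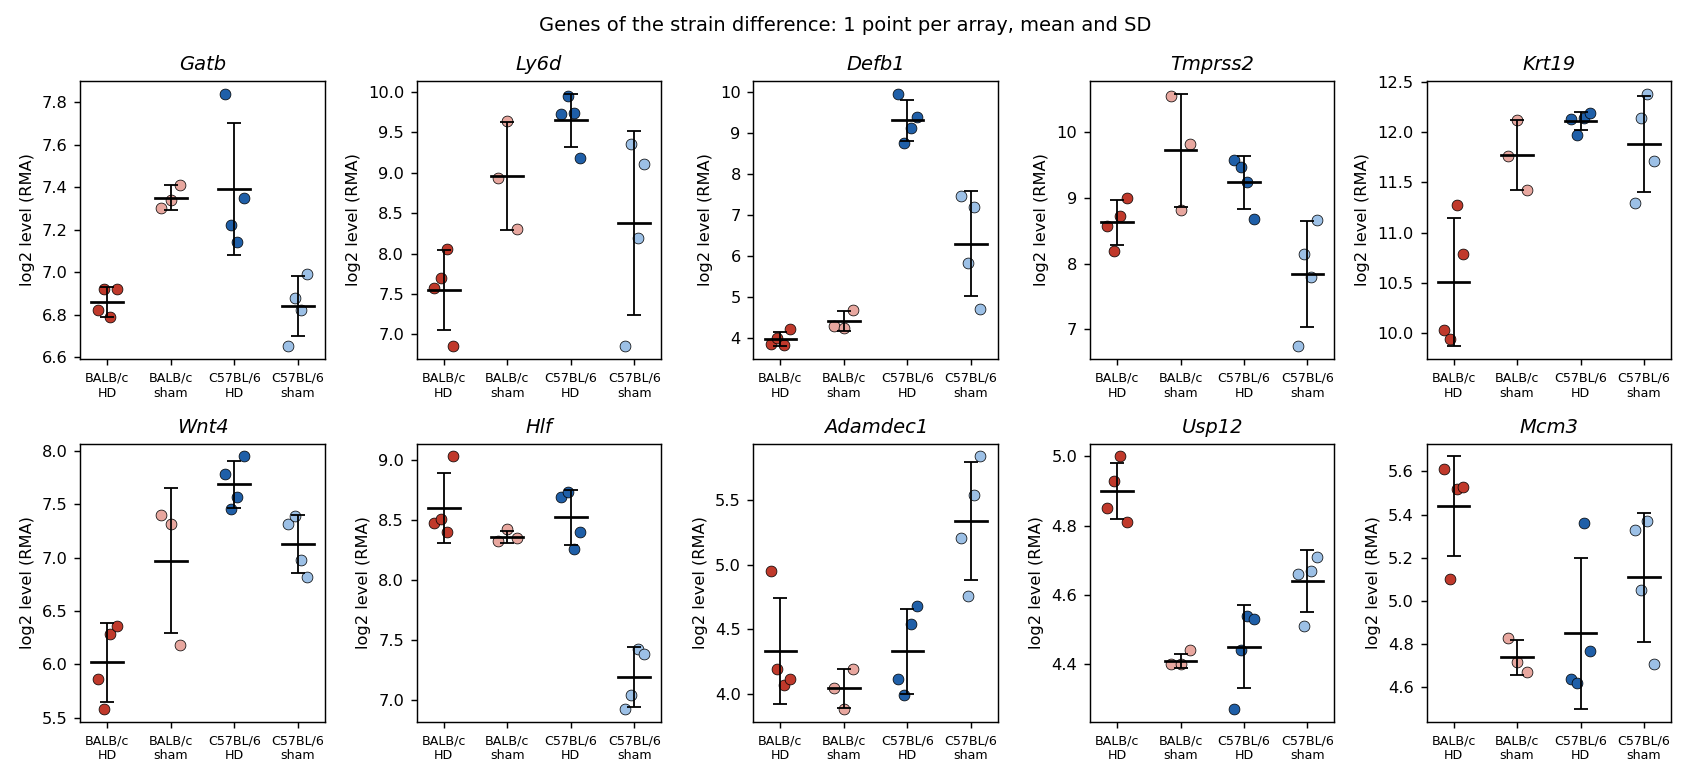
Log2 expression of 10 genes on each of the 15 arrays (points), with the mean and SD of each group (line and bar), BALB/c HD and sham beside C57BL/6 HD and sham. The means of Ly6d, Krt19 and Tmprss2 sit lower after HD than after sham in BALB/c and not in C57BL/6, Hlf is lowest in the 4 C57BL/6 sham arrays, and the mean of Adamdec1 is highest there.

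Luminal epithelial genes supplied 4 of the 53 genes of the lower side. Of the 27 measured, 21 had a negative strain difference (44.9% of all genes had one), 10 at an unadjusted p under 0.05 and 4 past the HD thresholds: Ly6d, Wfdc2, Krt19 and Spdef. Of all genes 3.35% and 0.449% met these conditions with a negative value by any probe set, and 2.69% and 0.373% by the brightest one, which the lists use. The median strain difference over the list was -0.55, against 0.02 over all genes, with medians of -1.04 in BALB/c and -0.36 in C57BL/6. It was -0.40 without the lymphoid and the muscle array and -0.66 without all 4. In 20 of the 27 every BALB/c HD mouse was below every BALB/c sham mouse, as in 4.85% of all genes. In 7 of them every C57BL/6 HD mouse was below every C57BL/6 sham mouse, as in 5.57% of all genes. By limma no member passed an adjusted p of 0.05 for the BALB/c response, where the pair of BALB/c groups holds 7 mice. At this adjusted p 3 members fell in C57BL/6, as did 0.923% of all genes by the brightest probe set.

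The keratins show the pattern array by array. Krt19 lay at 10.03, 9.94, 11.27 and 10.79 in BALB/c HD mice, against 11.76, 12.12 and 11.42 in BALB/c sham mice. It lay at 12.13, 11.97, 12.14 and 12.19 in C57BL/6 HD mice, against 11.29, 12.14, 12.38 and 11.71 in C57BL/6 sham mice. The BALB/c groups were apart, the C57BL/6 HD mice lay within the range of their shams, and the strain difference was -1.49 ± 0.44 (adjusted p = 0.723). Krt8 and Krt18 behaved alike, with strain differences of -1.06 and -0.99, BALB/c responses of -1.31 and -1.23 and C57BL/6 responses of -0.25 and -0.24. Wfdc2, a secreted protease inhibitor of ducts, lay at 8.38, 8.26, 8.76 and 8.17 in BALB/c HD mice and 9.76, 9.70 and 8.81 in BALB/c sham mice, and at 10.42, 10.23, 10.22 and 9.91 in C57BL/6 HD mice and 8.26, 9.97, 9.98 and 9.13 in C57BL/6 sham mice. Its BALB/c groups were apart and its C57BL/6 groups overlapped at 9.91 and 9.98, with a strain difference of -1.88 ± 0.59. Foxa1, a pioneer factor of hormone-sensing cells, had a BALB/c response of -0.87, a C57BL/6 response of 0.39 and a strain difference of -1.25 ± 0.49 (adjusted p = 0.908).

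Other members of the same list had negative values in both strains. Ehf, an ETS factor of luminal cells, responded by -1.93 in BALB/c and fell by 2.04 in C57BL/6 (adjusted p = 0.0317), with a strain difference of 0.10. Kit, the receptor of luminal progenitors, responded by -1.07 in BALB/c and fell by 1.08 in C57BL/6 (adjusted p = 0.0305). Elf5, the ETS factor of alveolar progenitors, responded by -1.62 in BALB/c and -1.42 in C57BL/6 (adjusted p = 0.0571). Muc1, a membrane mucin, responded by -0.87 in BALB/c and fell by 1.31 in C57BL/6 (adjusted p = 0.0104). Esr1, the estrogen receptor, was the exception in sign: it lay at 5.51, 5.65, 6.12 and 6.09 in BALB/c HD mice and 5.31, 4.91 and 4.70 in BALB/c sham mice, and at 5.53, 5.15, 5.19 and 5.25 in C57BL/6 HD mice and 5.06, 5.02, 4.70 and 5.13 in C57BL/6 sham mice. HD mice were above sham mice in both strains, with a strain difference of 0.56. These examples were picked after their values were seen. The median SE of a strain difference in the list was 0.47, and the SE was 0.75 for Ehf, 0.60 for Elf5 and 0.39 for Kit. Differences within 2 SE could not be told from none, so near values do not show equal responses.

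**Figure D3:**
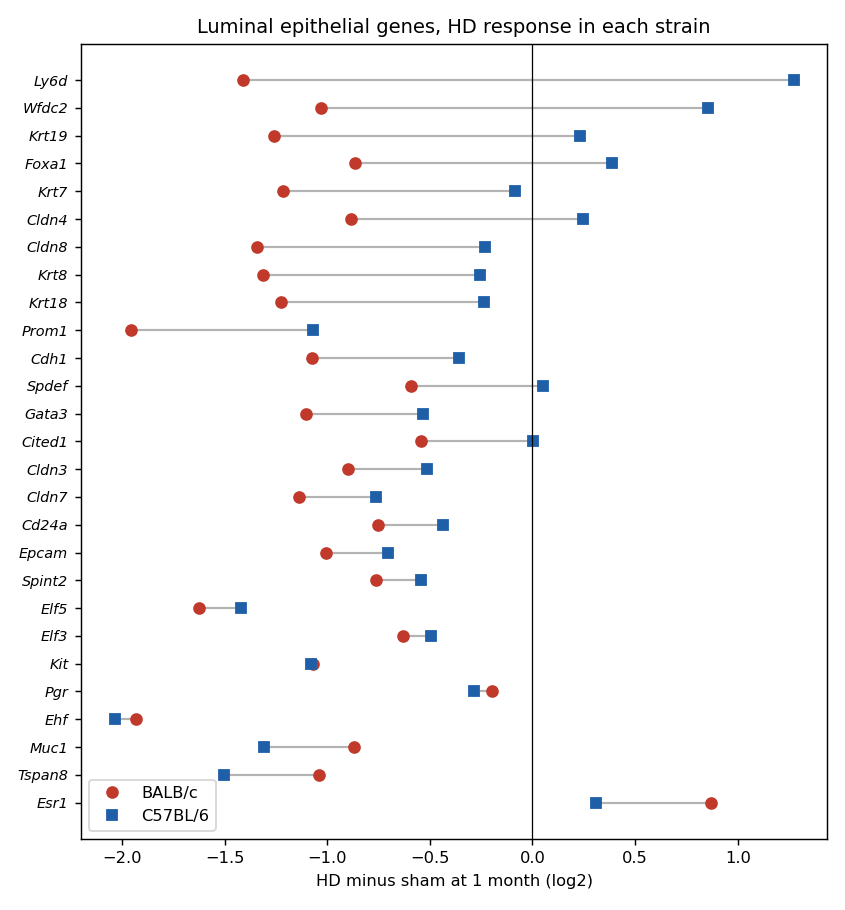
Response to HD at 1 month (horizontal axis, HD minus sham, log2) of the 27 measured luminal epithelial genes, BALB/c as circles and C57BL/6 as squares joined by a line. The BALB/c value is negative for 26 genes and the C57BL/6 value for 19, and the 2 points of Ehf and Kit nearly coincide.

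Of 15 genes of the steroid hormone and prolactin response, 4 had a lower BALB/c response at an unadjusted p under 0.05 (2.69% of all genes). Besides Wnt4 and Foxa1 they were Slc5a5, the iodide transporter, at -1.42, and Fxyd2, a sodium pump subunit, at -1.21, both with an adjusted p of 0.908. Fxyd2 was -0.68 without C57BL/6 sham replicate 1. Slc5a5 lay at 5.16, 4.64, 5.63 and 5.32 in BALB/c HD mice, below BALB/c sham mice at 6.27, 6.82 and 6.14. In C57BL/6 the values overlapped, with 6.28, 6.01, 6.13 and 6.03 after HD and 4.52, 6.29, 7.35 and 5.48 after sham. The list median was -0.16 and had no steady sign: it was 0.16 without C57BL/6 sham replicate 4, 0.19 without BALB/c sham replicate 2 and -0.52 without all 4 arrays. Of 18 myoepithelial genes none passed the HD thresholds or an unadjusted p of 0.05 in limma, and the BALB/c and C57BL/6 medians were -0.22 and -0.25.

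Clock genes supplied 2 of the 53, Hlf and Tef, and for both the C57BL/6 sham mice were the group that stood apart. By the brightest probe set 0.373% of all genes lay past the HD thresholds on this side. Of 15 clock genes 9 had a negative strain difference (44.9% of all genes did), with a median of -0.32 that became -0.17 without all 4 arrays. Hlf lay at 8.47, 8.51, 8.40 and 9.03 in BALB/c HD mice, against 8.32, 8.42 and 8.35 in BALB/c sham mice. It lay at 8.69, 8.73, 8.26 and 8.40 in C57BL/6 HD mice, against 6.92, 7.04, 7.42 and 7.38 in C57BL/6 sham mice. All C57BL/6 sham mice were below every other mouse, and Hlf responded by 0.24 in BALB/c and rose by 1.33 in C57BL/6 (adjusted p = 0.000423), with a strain difference of -1.09 ± 0.28. Of the 15 genes 6 rose in C57BL/6 (1.08% of all genes did by the brightest probe set): Hlf, Tef, Dbp, Per2, Per3 and Cry2. In 7 of the 15 every C57BL/6 HD mouse was above every C57BL/6 sham mouse (5.2% of all genes). In BALB/c this was so for 1 of the 15 (4.46% of all genes). Npas2, an activator of the clock, fell, and no clock gene passed an adjusted p of 0.05 in BALB/c.

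The windows of 250 bases before the start site of 3 of these genes are shown because they hold 1 each of the motifs through which clock genes are known to be driven, in the RefSeq table for build GRCm38.p6, read along the strand of the gene. Capitals mark the match. The E-box was searched as CACGTG, the D-box as TTATGNAA and the cAMP response element (CRE) as TGACGTCA, on both strands, and they were found in 6.02%, 3.07% and 1.55% of the 32851 promoters of the table.
Hlf, chr11:90390918-90391167, minus strand, 1 CRE: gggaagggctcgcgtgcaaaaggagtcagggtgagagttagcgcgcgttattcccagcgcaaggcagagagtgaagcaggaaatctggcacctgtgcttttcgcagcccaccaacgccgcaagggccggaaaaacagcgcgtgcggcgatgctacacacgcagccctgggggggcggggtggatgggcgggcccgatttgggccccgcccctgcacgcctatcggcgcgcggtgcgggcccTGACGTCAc
Tef, chr15:81802423-81802672, plus strand, 1 E-box: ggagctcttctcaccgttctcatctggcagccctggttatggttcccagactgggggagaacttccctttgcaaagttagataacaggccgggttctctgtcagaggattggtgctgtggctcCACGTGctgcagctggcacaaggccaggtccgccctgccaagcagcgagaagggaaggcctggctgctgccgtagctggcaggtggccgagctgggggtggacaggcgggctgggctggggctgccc
Per3, chr4:151044666-151044915, minus strand, 2 D-boxes: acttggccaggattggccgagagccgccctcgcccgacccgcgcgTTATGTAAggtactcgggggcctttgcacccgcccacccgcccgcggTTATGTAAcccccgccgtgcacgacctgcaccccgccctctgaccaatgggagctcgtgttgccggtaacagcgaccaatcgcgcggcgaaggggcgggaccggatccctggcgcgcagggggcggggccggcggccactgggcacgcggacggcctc
Of the 6 clock genes that rose in C57BL/6, 5 were matched in the table, and of those 1 held an E-box, 1 a D-box and 1 a CRE in this window. The second start site of Tef also held an E-box. A match describes these letters only.

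Tef, which binds the D-box as Hlf does, lay at 10.31, 10.42, 10.08 and 10.61 in BALB/c HD mice and 10.12, 10.22 and 10.11 in BALB/c sham mice, and at 10.67, 10.43, 10.33 and 10.36 in C57BL/6 HD mice and 9.28, 9.35, 9.51 and 9.63 in C57BL/6 sham mice. Its strain difference was -0.80 ± 0.23 (adjusted p = 0.711). Per2, a repressor of the loop, lay at 7.91, 8.12, 7.65 and 8.48 in BALB/c HD mice and 8.01, 7.90 and 7.71 in BALB/c sham mice, and at 8.35, 7.74, 7.91 and 7.67 in C57BL/6 HD mice and 6.36, 6.61, 6.73 and 6.67 in C57BL/6 sham mice. Its strain difference was -1.16 ± 0.44 (adjusted p = 0.908), and that of Cry2, a further repressor, was -0.55 (adjusted p = 0.908). The activator Arntl ran the other way: it lay between 4.45 and 5.06 in BALB/c HD mice and between 4.81 and 5.18 in BALB/c sham mice, and between 4.65 and 5.03 in C57BL/6 HD mice, all below C57BL/6 sham mice at 5.84, 5.74, 5.52 and 5.92. For Tef, Per2 and Arntl the BALB/c groups and the C57BL/6 HD mice lay together and the C57BL/6 sham mice apart.

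The LD mice of the same time share the shams, so they are given as values only. In C57BL/6, Hlf lay between 6.92 and 7.42 in sham mice, at 7.18, 7.54, 7.28 and 7.87 in LD mice and between 8.26 and 8.73 in HD mice. Per2 lay between 6.36 and 6.73 in C57BL/6 sham mice, at 6.96, 6.07, 6.05 and 7.30 in LD mice and between 7.67 and 8.35 in HD mice. The LD mice thus lay near the shams. The hour at which each gland was taken is not given in the sources used here, and its part in these values was not tested.

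Fat-related genes shared the lower side with small values. All 16 white adipocyte genes had a negative strain difference (44.9% of all genes), with a median of -0.21. The median responses were 0.09 in BALB/c and 0.35 in C57BL/6, and 2 of the genes rose in C57BL/6 (1.08% of all genes). Without all 4 arrays 14 strain differences of the list were negative, with a median of -0.08. Pnpla2, the lipase that starts the breakdown of stored fat, had a strain difference of -0.62 (adjusted p = 0.908), and Cebpa, a factor of fat cell differentiation, rose in C57BL/6 by 0.37 (adjusted p = 0.044). Outside the list, Abhd15, a protein of insulin-responsive fat cells, rose in C57BL/6 by 0.83 (adjusted p = 0.00642) with a strain difference of -0.89. The summed level of the list lay at -0.13, 0.24, -0.16 and 0.19 in BALB/c HD mice and -0.12, 0.00 and -0.15 in BALB/c sham mice, and at 0.30, 0.14, -0.05 and 0.00 in C57BL/6 HD mice and -0.14, -0.33, -0.54 and -0.16 in C57BL/6 sham mice. In C57BL/6 every HD mouse was above every sham mouse, and the BALB/c groups overlapped. Whether more fat or less epithelium in a sample moved these values was not tested. Of 27 genes of oxidative phosphorylation 25 had a negative strain difference (44.9% of all genes), with a median of -0.14, but without the lymphoid and the muscle array 18 did, with a median of -0.04.

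Among the 36 genes with the higher BALB/c response, Usp12, a deubiquitinating enzyme, had the smallest p. It lay at 4.85, 4.93, 5.0 and 4.81 in BALB/c HD mice, against 4.40, 4.40 and 4.44 in BALB/c sham mice, and at 4.27, 4.44, 4.54 and 4.53 in C57BL/6 HD mice, against 4.66, 4.51, 4.67 and 4.71 in C57BL/6 sham mice. All BALB/c HD mice were above all other mice. The strain difference was 0.68 ± 0.15 (adjusted p = 0.367), and it stayed past the HD thresholds with any 1 of the 15 arrays left out. Of the 3 probe sets of Usp12 only this one passed, and the lowest gave 0.18. Stk35, a nuclear kinase, rose in BALB/c by 0.54 (adjusted p = 0.0443) and differed by -0.05 in C57BL/6, with a strain difference of 0.60 ± 0.15. Both genes lay below the array medians.

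Adamdec1, a metalloprotease of macrophages and stroma, differed through the C57BL/6 mice. It lay at 4.95, 4.19, 4.07 and 4.11 in BALB/c HD mice and 4.04, 3.88 and 4.19 in BALB/c sham mice, and at 4.11, 3.99, 4.54 and 4.68 in C57BL/6 HD mice and 5.21, 4.76, 5.54 and 5.84 in C57BL/6 sham mice. The C57BL/6 groups were apart, and the highest BALB/c value was that of the lymphoid array, which was outside the range of the others. The gene fell in C57BL/6 by 1.01 (adjusted p = 0.0146), and the strain difference of 1.30 ± 0.32 was 1.28 without the lymphoid and the muscle array. All values of Adamdec1 lay below the array medians, and a fall from the lower BALB/c sham values could hardly be measured. Col4a6, a collagen of epithelial basement membrane, lay between 4.43 and 4.94 in BALB/c HD mice and between 4.50 and 4.72 in BALB/c sham mice. It fell in C57BL/6 by 1.14 (adjusted p = 0.00642), with 6.04, 5.68, 6.08 and 6.42 after HD against 7.42, 7.20, 7.21 and 6.94 after sham. The groups overlapped in BALB/c only, and the strain difference was 1.17 ± 0.33. All BALB/c values of Col4a6 lay below the array medians, so a fall there could hardly be measured. Its sham means were 4.59 in BALB/c and 7.19 in C57BL/6. Bmp1, the protease that trims procollagen, fell in C57BL/6 too, with a strain difference of 0.90. Prnd, a relative of the prion protein, was instead higher in BALB/c: it lay at 5.94, 6.86, 5.23 and 6.49 in BALB/c HD mice and 4.53, 4.52 and 5.19 in BALB/c sham mice, and at 5.45, 4.97, 5.09 and 5.06 in C57BL/6 HD mice and 6.01, 4.54, 4.70 and 4.36 in C57BL/6 sham mice, with a strain difference of 1.14.

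DNA replication genes lay on the higher side. Of 33 measured, 30 had a positive strain difference (6482 of all 11807 genes did) and 2 a negative one. At an unadjusted p under 0.05 in limma 3 were positive, as were 2.61% of all genes by the brightest probe set. Mcm3 and Rfc3 passed the HD thresholds (0.203% of all genes did by the brightest probe set). The list median was 0.40, with 0.35 in BALB/c and -0.11 in C57BL/6. In 5 of the 33 every BALB/c HD mouse was above every BALB/c sham mouse, as in 4.46% of all genes. In C57BL/6 this was so for none of them, and for 5.2% of all genes. Mcm3, a subunit of the replicative helicase, lay at 5.61, 5.10, 5.52 and 5.53 in BALB/c HD mice, against 4.83, 4.72 and 4.67 in BALB/c sham mice, and at 4.64, 4.62, 5.36 and 4.77 in C57BL/6 HD mice, against 5.33, 5.05, 5.37 and 4.71 in C57BL/6 sham mice. The BALB/c groups were apart and the C57BL/6 groups overlapped, with a strain difference of 0.97 ± 0.31 (adjusted p = 0.852). Rfc3, a subunit of the clamp loader, had a strain difference of 0.79 ± 0.25 (adjusted p = 0.852).

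The list medians depended on 1 array. C57BL/6 sham replicate 3 was the most proliferative of the 15, with the marker Mki67 at 9.98. Mki67 lay at 7.92, 6.56, 7.99 and 6.40 in BALB/c HD mice, against 7.38, 5.37 and 5.66 in BALB/c sham mice, and at 7.10, 6.82, 8.72 and 7.65 in C57BL/6 HD mice, against 8.08, 6.18 and 5.86 in the other C57BL/6 sham mice. Without that array the median of the DNA replication genes was 0.18, and Mcm3 was 0.88. The 37 mitosis and spindle genes had a median of 0.51, with 35 positive (6482 of all 11807 genes were), and of -0.06 without that array. None of the 37 passed the HD thresholds or an unadjusted p of 0.05 in limma, the groups overlapped for every one in both strains, and their median SE was 0.60.

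Macrophage genes were also on the higher side. Medians of other lists were 0.03 for 12 neutrophil genes, 0.44 for 9 mast cell genes and 0.32 for 9 dendritic cell genes. The dendritic cell median was 0.02 without the lymphoid and the muscle array. Of 28 macrophage genes 27 had a positive strain difference, as had 6482 of all 11807 genes. The list median was 0.61, with medians of 0.23 in BALB/c and -0.35 in C57BL/6. The median was 0.38 without all 4 arrays and 0.40 without BALB/c sham replicate 3. None of the 28 passed the HD thresholds (0.203% of all genes did with a positive value by the brightest probe set), and their median SE was 0.47. At an unadjusted p under 0.05, which 4.07% of all genes met with a positive value by any probe set and 2.61% by the brightest, were Cd84, an adhesion receptor (0.86), and Clec7a, the beta-glucan receptor (0.98). Cd84 lay at 6.17, 5.83, 6.21 and 5.46 in BALB/c HD mice and 5.53, 5.54 and 5.42 in BALB/c sham mice, and at 5.69, 6.28, 6.37 and 5.65 in C57BL/6 HD mice and 6.24, 6.41, 6.39 and 6.72 in C57BL/6 sham mice, and the groups overlapped in both strains. Outside the list, Ccr2, the receptor that recruits monocytes, and Ear3, a ribonuclease of eosinophils, passed the HD thresholds at 0.78 and 1.59, and neither did without the lymphoid and the muscle array, at 0.61 and 1.49. Ccr2 was 0.38 without all 4. All 10 genes of MHC class II presentation were positive as well (6482 of all 11807 genes were), with a median of 0.65. But the median of the same genes was 0.32 without the 2 arrays and 0.28 without all 4. H2-Ab1, a class II chain, lay at 10.85 in the lymphoid array and between 9.25 and 9.77 in the other BALB/c HD mice, against 9.64 to 10.19 in BALB/c sham mice, so its strain difference of 0.68 was 0.38 without the 2 arrays.

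Matrix genes had small values. Of 37 extracellular matrix genes 35 had a positive strain difference, as had 6482 of all 11807 genes. The list median was 0.25, with medians of 0.00 in BALB/c and -0.31 in C57BL/6. Col14a1, a collagen of fibril surfaces, was the 1 member at an unadjusted p under 0.05 in limma (0.96, adjusted p = 0.908). Of all genes 2.61% were so with a positive value by the brightest probe set. Col14a1 was 0.59 without C57BL/6 HD replicate 1. It lay at 9.63, 10.24, 10.22 and 9.52 in BALB/c HD mice and 10.08, 9.58 and 9.56 in BALB/c sham mice, and at 7.85, 9.48, 9.11 and 9.39 in C57BL/6 HD mice and 9.83, 9.49, 9.93 and 9.77 in C57BL/6 sham mice. Every C57BL/6 HD mouse was below its shams, and the BALB/c groups overlapped. Of 17 fibroblast genes 16 were positive (6482 of all 11807 genes were), with a median of 0.32.

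**Figure D4:**
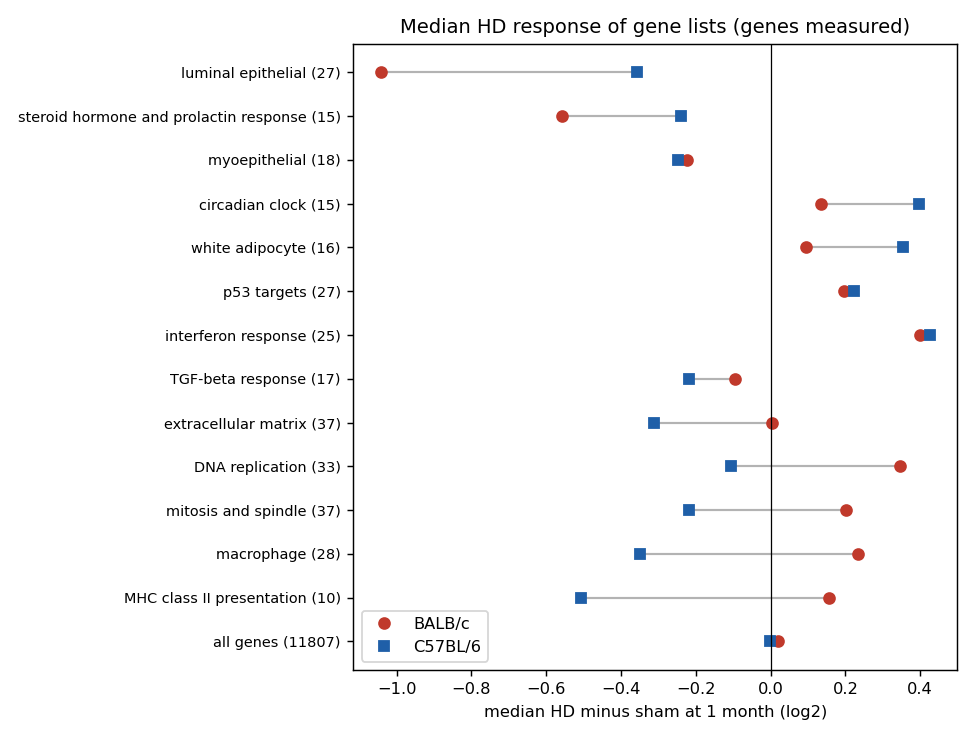
Median response to HD at 1 month (horizontal axis, HD minus sham, log2) of 13 gene lists and of all genes, BALB/c as circles and C57BL/6 as squares joined by a line. The luminal list has the lowest BALB/c median at -1.04, with -0.36 in C57BL/6. The MHC class II list has the lowest C57BL/6 median at -0.51, with 0.16 in BALB/c. The medians of all genes are 0.02 in BALB/c and 0.00 in C57BL/6.

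Damage and cytokine genes had no common strain difference. Cdkn1a, the cell cycle inhibitor driven by p53, lay at 7.96, 7.91, 8.58 and 7.73 in BALB/c HD mice and 6.61, 7.18 and 6.18 in BALB/c sham mice, and at 7.89, 8.47, 9.09 and 7.66 in C57BL/6 HD mice and 7.31, 7.63, 7.58 and 6.85 in C57BL/6 sham mice. The groups were apart in both strains (0.551% of all genes were higher and apart in both), with responses of 1.39 in BALB/c (adjusted p = 0.112) and 0.93 in C57BL/6 (adjusted p = 0.16). The strain difference of 0.46 had an interval from -0.62 to 1.53. Of 27 p53 targets, with a median of -0.06, Plk2, a polo-like kinase, was lower in BALB/c (-0.95, adjusted p = 0.711) and Apaf1, the scaffold of the apoptosome, higher (0.71, adjusted p = 0.852).

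Plk2 lay at 8.50, 8.73, 9.28 and 8.71 in BALB/c HD mice, below BALB/c sham mice at 9.61, 9.34 and 9.66, and overlapped in C57BL/6. Of 17 TGF-beta response genes, with a median of 0.12 that was 0.00 without BALB/c HD replicate 1, Smad6, an inhibitor of BMP signalling, passed the HD thresholds at -0.91 (adjusted p = 0.852) and rose in C57BL/6 by 0.73 (adjusted p = 0.0401). Interferon response genes were positive in each strain for 24 of 25 members, whereas 44.9% of all genes were negative in BALB/c and 50.3% in C57BL/6. The list had medians of 0.40 in BALB/c and 0.43 in C57BL/6 and a median strain difference of 0.00. That value became -0.60 without all 4 arrays, with 24 of 25 negative. BALB/c HD replicate 3 had the highest level of the list (1.39). Cxcl9, a chemokine driven by interferon-gamma, rose in C57BL/6 by 1.22 (adjusted p = 0.0104), with a strain difference of -0.77 (adjusted p = 0.908).

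Of the genes followed by quantitative PCR at 1 month, most of them in LD mice only, none of the 6 passed the HD thresholds for the strain difference on the arrays. Sox9, a factor of mammary progenitors, responded by -0.59 in BALB/c and fell by 0.75 in C57BL/6 (adjusted p = 0.027), the groups being apart in both strains (1.1% of all genes were lower and apart in both), with a strain difference of 0.16. Sprr1a, a cornified envelope protein, had a strain difference of -1.69 with an interval from -3.53 to 0.15, and it lay between 4.15 and 4.40 in BALB/c HD mice and 4.50 and 6.19 in BALB/c sham mice, and between 4.58 and 6.94 in C57BL/6 HD mice and 4.09 and 5.71 in C57BL/6 sham mice. Skp2, a subunit of a ubiquitin ligase of the cell cycle, had a strain difference of 0.42 (adjusted p = 0.908). Those of Ccna2, a cyclin, and Ucp1, the uncoupling protein of brown fat, were 0.51 ± 0.91 and 0.22 ± 1.52, so neither sign was settled.

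Markers of skeletal muscle and of lymphocytes moved with single arrays rather than with groups. The summed level of the skeletal muscle list was 2.83 in BALB/c HD replicate 3 and 4.77 in C57BL/6 sham replicate 2, against -0.25 to 1.07 on the other 13 arrays, and its median strain difference of 1.99 was 0.14 without all 4 arrays. The B cell list stood at 3.03 in BALB/c HD replicate 1 and 1.30 in C57BL/6 HD replicate 3, and the T cell list at 2.41 and 1.38 there. The B cell median of 0.48 became -0.33 and the T cell median of 0.27 became -0.34 without the lymphoid and the muscle array. Without all 4 arrays these medians were -0.01 and -0.09. The luminal list, by contrast, lay at -1.03, -1.06, -0.39 and -0.80 in BALB/c HD mice and 0.14, 0.11 and 0.27 in BALB/c sham mice, and at 0.14, -0.21, -0.05 and 0.18 in C57BL/6 HD mice and 0.00, 0.52, 0.75 and 0.34 in C57BL/6 sham mice. The 4 BALB/c HD mice were below the other 11.

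**Figure D5:**
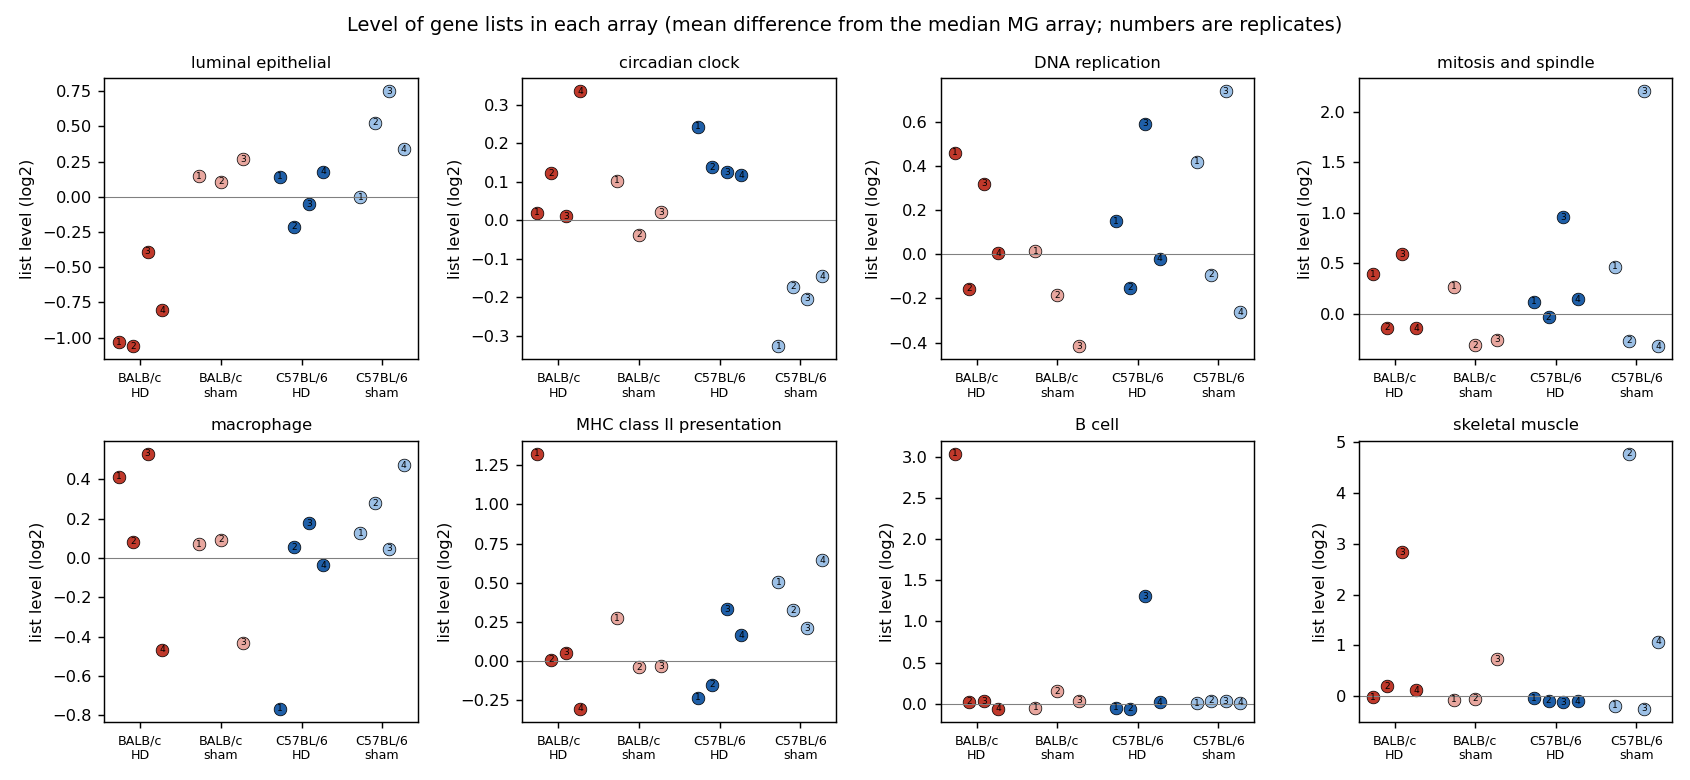
Summed level of 8 gene lists on each of the 15 arrays (vertical axis, mean log2 deviation of the list's genes; numbers give the replicate), BALB/c HD and sham beside C57BL/6 HD and sham. The 4 BALB/c HD arrays are lowest for the luminal list, the 4 C57BL/6 sham arrays are lowest for the clock list, and single arrays stand out for the muscle and B cell lists.

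Mice taken 4 hr after the last exposure are separate animals. Their arrays lay on the same plate as those of their strain at 1 month, with HD again to the right of sham. Plate and strain, and position and dose, thus ran together at this time too, and the fit was shared. Over all genes the strain difference at 4 hr passed an adjusted p of 0.05 for none in limma (0%). By any probe set, 1002 genes (8.49%) were at an unadjusted p under 0.05 and 121 (1.02%) past the HD thresholds. By the probe set of highest mean, 2.6% had a negative and 3.29% a positive value at an unadjusted p under 0.05. Of the 53 genes lower in BALB/c at 1 month, 33 (62.3%) were negative at 4 hr, against 48.4% of all genes, and 8 (15.1%) were so at an unadjusted p under 0.05, against 2.6% of all genes. Of the 36 higher ones, 19 (52.8%) were positive at 4 hr, against 51.6% of all genes, and 3 (8.33%) were so at an unadjusted p under 0.05, against 3.29%. Genes of a list share their cells and samples, so these shares are given without a test. The 53 and the 36 were taken at their probe set of smallest p at 1 month, and all genes at that of highest mean.

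These 8 were Krt19, Wfdc2 and Ly6d of the luminal list, Sdc4, Slc12a2, Tmprss2, Il15ra, a cytokine receptor chain, and Airn, a noncoding RNA. Krt19 lay at 10.13, 9.21, 9.51 and 8.39 in BALB/c HD mice at 4 hr, against 11.56, 11.06 and 11.01 in BALB/c sham mice. It lay at 10.84, 11.57, 10.88 and 11.97 in C57BL/6 HD mice, against 11.50, 12.15 and 12.07 in C57BL/6 sham mice. The BALB/c groups were apart, the C57BL/6 groups overlapped, and the strain difference at 4 hr was -1.30 (adjusted p = 0.678). It was -0.66 for Sdc4, -1.55 for Slc12a2, -1.63 for Wfdc2, -1.58 for Ly6d and -1.39 for Tmprss2, with adjusted p-values from 0.448 for Sdc4 to 0.798 for Tmprss2. A change between the times was not tested. Of the 27 luminal genes 22 were negative at 4 hr (48.4% of all genes were), with a median of -0.56.

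Other groups had other values at 4 hr. The clock list had a median of 0.11 there, and Hlf lay at 8.18, 8.34, 8.17 and 8.02 in BALB/c HD mice and 8.26, 7.66 and 8.06 in BALB/c sham mice, and at 7.77, 7.06, 8.04 and 7.61 in C57BL/6 HD mice and 7.54, 8.00 and 7.37 in C57BL/6 sham mice, with all groups of a strain overlapping. The macrophage list had the other sign, with 26 of 28 negative (48.4% of all genes were) and a median of -0.34. Gatb had a strain difference of 0.38 and Defb1 one of 1.76 (adjusted p = 0.798 for each), both opposite in sign to those at 1 month. Defb1 lay at 4.78, 7.27, 4.56 and 6.27 in C57BL/6 HD mice at 4 hr, against 7.19, 6.70 and 9.17 in C57BL/6 sham mice, so the sham mice of that strain alone spanned 4.70 to 9.17 over both times.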

How the data were processed

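RNA of 43 MG samples and 8 blood samples had been hybridised to Affymetrix HT Mouse Genome 430A arrays, and the MG arrays were used here. The deposited values are log2 expression per probe set, which the authors made with RMA (background correction, quantile normalization, median polish). RMA and limma are named without versions in the submitters' processing notes. RMA holds the array distributions alike and compresses differences of dim probe sets, and it gives no detection call, so the number of arrays limits the precision. No detection filter was applied in the reported fit.

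A linear model with 12 group means was fitted to all 43 MG arrays with limma 3.58.1 in R 4.3.3 (lmFit, contrasts, eBayes), and p-values were adjusted by the Benjamini-Hochberg method across 22626 probe sets. Nothing in the labels pairs mice. Of the probe sets 18003 carried 1 gene, 287 several and 4336 none in the platform annotation. Counts over genes used any probe set of a gene, and a gene could count in both directions. Lists used the probe set of highest mean. Summed list levels are means, over the genes of a list, of the log2 deviation from the gene's median over the 43 MG arrays.

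Genes named by rule were the 10 highest and 10 lowest strain differences at adjusted p under 0.05, filled up by smallest p among genes past the HD thresholds, the same again without the lymphoid and the muscle array, the 6 genes that were followed by quantitative PCR at 1 month, and the 4 members of smallest p of each list. Others are named as seen in the data. The members, taken by their labels, and the gene lists were chosen with earlier results of these data known. The fit was tested on simulated data of this design. Alternatives were array weights, a trended and robust prior, only the 15 arrays, quantile normalization, median centring, a filter on low values, 1 probe set per gene, plate column, plate row, blocks by replicate number or well, and each array left out. Leaving out all 4 arrays high in lymphoid or muscle transcripts was added after seeing the data. Figures were drawn with matplotlib 3.10.9 in Python 3.11.15.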

Additional observations from a re-analysis of the deposited data

Results flagged for a closer look

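Of 303 groups of 4 arrays examined, for the 85 genes named by rule and for 16 list levels, 25 held 1 array far from the others by Dixon's criterion, which chance alone meets in about 1 group of 20. Adamdec1 was 4.95 in BALB/c HD replicate 1, against 4.07 to 4.19 in the others. In C57BL/6 HD replicate 1, Galnt7 was 5.10 (others 5.50 to 5.56), Niban1 6.11 (others 6.61 to 6.62) and Airn 7.57 (others 7.23 to 7.28). In C57BL/6 sham replicate 3, Abhd15 was 6.98 (others 7.57 to 7.60) and Airn 6.54 (others 7.06 to 7.10). Also in C57BL/6 HD replicate 1, Aqp7 was 9.61 (others 8.99 to 9.04), Lgals12 10.08 (others 9.70 to 9.76) and Ms4a7 6.26 (others 7.44 to 7.48). Also in C57BL/6 sham replicate 3, Cebpa was 10.86 (others 11.26 to 11.28) and Ttk 6.37 (others 4.2 to 4.47). Jag1 was 6.98 in BALB/c HD replicate 2 (others 6.56 to 6.60), Rfc3 5.62 in C57BL/6 HD replicate 2 (others 5.99 to 6.05), Prc1 6.69 in C57BL/6 HD replicate 3 (others 5.7 to 5.86), Smad7 5.73 in C57BL/6 sham replicate 1 (others 5.91 to 5.93) and Ifi35 8.65 in C57BL/6 sham replicate 2 (others 8.11 to 8.15). Ccna2 was 6.89 in C57BL/6 HD replicate 3 (others 5.14 to 5.37), and Sprr1a was 5.71 in C57BL/6 sham replicate 2 (others 4.09 to 4.25).

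Among list levels, the B cell list was 3.03 in BALB/c HD replicate 1 (others -0.06 to 0.03) and 1.30 in C57BL/6 HD replicate 3 (others -0.06 to 0.02), and the T cell list was 2.41 in BALB/c HD replicate 1 (others -0.08 to 0.01) and 0.11 in C57BL/6 sham replicate 1 (others 0.04 to 0.05). The skeletal muscle list was 2.83 in BALB/c HD replicate 3 (others -0.02 to 0.19). The interferon response list was 0.58 in C57BL/6 sham replicate 2 (others -0.03 to 0.00). The clock list was 0.24 in C57BL/6 HD replicate 1 (others 0.12 to 0.14), which lay on the side away from the C57BL/6 sham mice.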

How the results depend on the processing

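The strain difference passed an adjusted p of 0.05 for 0 genes, for 1 under quantile normalization, the filter on low values, 1 probe set per gene or the replicate block, and for 2 under median centring. It passed for 0 to 1 with any array left out (1 without C57BL/6 HD replicate 3). The 89 genes past the HD thresholds became 189 with plate column as a covariate (66 higher, 123 lower), 178 with the replicate block (94 higher, 84 lower) and 64 to 153 with 1 array left out (64 without C57BL/6 HD replicate 1, 146 without C57BL/6 sham replicate 4, 153 without BALB/c HD replicate 4). The 36 higher and 53 lower genes became 18 and 99 under median centring, 22 and 65 under quantile normalization and 17 and 45 under the filter on low values. The median over all genes was 0.02 as reported, -0.07 under median centring and -0.06 with plate column. At an unadjusted p under 0.05, 876 genes became 523 under the filter and 673 to 1240 with 1 array left out.

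The 15 genes of the BALB/c response at an adjusted p of 0.05 became 5 with the trended and robust prior, 23 under quantile normalization, 47 under median centring, 2 with 1 probe set per gene, 0 with plate column, 0 with the replicate block, 6 without the 2 arrays, 6 without all 4 and 2 to 54 with 1 array left out (2 without BALB/c sham replicate 3, 54 without BALB/c HD replicate 3). The 299 of C57BL/6 became 102 with only the 15 arrays, 630 with array weights, 505 under the filter, 0 with plate column, 64 with the replicate block, 151 without the 2 arrays, 134 without all 4 and 38 to 528 with 1 array left out (38 without C57BL/6 sham replicate 3, 528 without C57BL/6 sham replicate 4). Neither response could be estimated with wells as a block. The replicate numbers did not pair the mice: residuals of the same strain and number correlated by 0.03 on average (-0.08 to 0.16), and those of other numbers by -0.01.

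Of the 85 genes named by rule, 40 kept direction and side of the HD thresholds with plate column, 71 with the replicate block, 76 without the 2 arrays and 73 without all 4. With plate column the sign turned for Arl2bp (-0.03), Sprr1a (0.42), Cdkn1a (-0.93), Ucp1 (-4.44), Lmod1 (-0.46), Lgr6 (0.15), Jag1 (0.49), Cebpa (0.10), Lgals12 (0.34), Bbc3 (0.54) and Cxcl9 (0.84). Ucp1 was -0.31 with the replicate block and ran between -0.47 and 1.14 with 1 array left out, negative without C57BL/6 HD replicate 1 or 3, C57BL/6 sham replicate 3 or BALB/c HD replicate 4. With 1 array left out, Sox9 ran between -0.01 (without BALB/c sham replicate 2) and 0.31, Ccna2 between -0.29 (without C57BL/6 sham replicate 3) and 0.92, and Irf9 between -0.06 (without BALB/c HD replicate 3) and 0.31, and Irf9 was -0.24 without all 4 arrays. The causes were not tested. With 3 or 4 mice a group, a strain difference under about 0.35 log2 units lay within 2 median SE.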
